A study of Drosophila melanogaster with 24 samples.

Results

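The genes described here are 10 protein-coding genes of the Drosophila melanogaster Y chromosome, namely kl-2, kl-3, kl-5, ORY, CCY, PPr-Y, WDY, ARY, Pp1-Y1 and Pp1-Y2. They were found by matching their FlyBase symbols to the gene IDs of the deposited table, and all 10 were among its 17606 genes. The table holds 113 genes that the annotation places on the Y chromosome, of which 23 are protein coding, 28 are noncoding RNAs and 62 are pseudogenes.

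RNA was sequenced from whole adult heads in 24 libraries, 3 for each combination of age, sex and genotype, and every library was made from 10 to 25 flies. Young flies were 0 to 2 days past eclosion and old flies 21 to 25 days. Control animals, labelled H3.3Adelta and called H3.3Anull below, lack a functional H3.3A gene, because they carry the H3.3A2x1 null allele over the deficiency Df(2L)Bsc110, and their X-linked H3.3B gene is wild type. Mutant animals, labelled H3.3BK36R and called H3.3K36R below, carry the same H3.3A alleles and an H3.3B gene that encodes arginine in place of lysine 36, so that no histone H3.3 with lysine 36 remains. The X chromosomes of both genotypes also carry y and w mutations. Males of the 2 genotypes received their Y chromosome from fathers of separate crosses, so the H3.3B allele and the origin of the Y chromosome cannot be told apart. Heads were shaken off frozen flies and collected on sieves, and no step of the protocol removes pieces of other body parts that pass with them.

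The Y chromosome of this species is almost wholly heterochromatic and is carried by males only. Its fertility genes are needed for making sperm and are known to be transcribed in primary spermatocytes, where several of them form giant lampbrush-like loops because their introns are filled with satellite repeats. kl-2, kl-3 and kl-5 encode axonemal dynein heavy chains, the motor subunits of the sperm tail. In the head the Y chromosome is known mostly as a large block of silent chromatin, and the known work of its fertility genes lies in the testis.

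On the dm6 assembly kl-3 (FBgn0267432) lies on chromosome Y from 336381 to 563165 on the plus strand, and kl-2 (FBgn0001313) follows it from 573088 to 664173 on the same strand. ARY (FBgn0058064), at 702430 to 704048, is the next annotated gene, with 0 other table rows between kl-3 and kl-2 and 0 between kl-2 and ARY. kl-5 (FBgn0267433) lies at the other side, from 22250 to 137486 on the minus strand. The exons of kl-2 make up 14.7% of its span of 91.1 kb, those of kl-3 6.12% of 226.8 kb and those of kl-5 11.9% of 115.2 kb, and the rest is intron. The 3 genes have similar exon lengths, 13.39, 13.88 and 13.68 kb, so their normalized counts can be read side by side. No other annotated gene overlaps the exons of any of the 10 genes. Of the others, PPr-Y (FBgn0046697) spans 248.3 kb with 1.71 kb of exon and WDY (FBgn0267449) 214.4 kb with 3.39 kb, whereas Pp1-Y1 (FBgn0261399) and Pp1-Y2 (FBgn0046698) are single exons of 0.95 and 1.29 kb.

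Young males of H3.3K36R enter with 2 libraries, because replicate 2 of that group held far more testis RNA than any other library and is set aside. It was also highest in the 14 listed accessory gland and ejaculatory bulb genes, which summed to 85469 normalized counts. The remaining 11 male and 12 female libraries held 21263006 to 42763126 reads on genes. Males had at least 39681 normalized counts of the male-specific RNA roX1 and females at most 3195. Single libraries stood apart in 3 ways. The first is testis RNA, measured as the sum of 20 testis genes with a median under 15 normalized counts in females, which was 181 in young male H3.3Anull replicate 2 and 311 in old male H3.3K36R replicate 2 against 23.4 to 87.2 in the other males and 14217 in the library left out. The second is the yolk protein gene Yp1, a female fat body gene, with 56504 normalized counts in young male H3.3K36R replicate 3, 253930 in old male H3.3Anull replicate 3 and 51098 in old male H3.3K36R replicate 1, against at most 5490 in other males. The third is the breadth of low-level reads: of 2360 autosomal genes silent in at least 12 libraries, young male H3.3Anull replicate 2 had reads on 53.4%, young male H3.3K36R replicate 3 on 37.2% and old male H3.3K36R replicate 3 on 53.1%, while the other males of the comparisons had reads on 10.1% to 21.5%. Young male H3.3K36R replicate 3 also had 5334 normalized counts of the neuronal gene elav, the lowest of the 24 libraries.

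The clearest result was in kl-2. In young males kl-2 had 0.760, 16 and 1.80 normalized counts in the H3.3Anull libraries and 43.7 and 48.9 in the H3.3K36R libraries. In old males it had 5.72, 6.43 and 4.69 in H3.3Anull and 49.9, 39.0 and 68.0 in H3.3K36R. All 5 H3.3K36R libraries were above all 6 H3.3Anull libraries, the nearest pair being 39.0 and 16. A normalized count is a gene's reads after division by a library size factor, and 1 read was worth 0.760 to 1.15 normalized counts in these males. In reads, kl-2 had 1 to 17 per H3.3Anull library and 34 to 71 per H3.3K36R library, although the H3.3K36R male libraries were the shallower ones at each age. In bulk RNA a larger number of cells with kl-2 RNA cannot be told apart from more kl-2 RNA per cell.

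**Figure D1:**
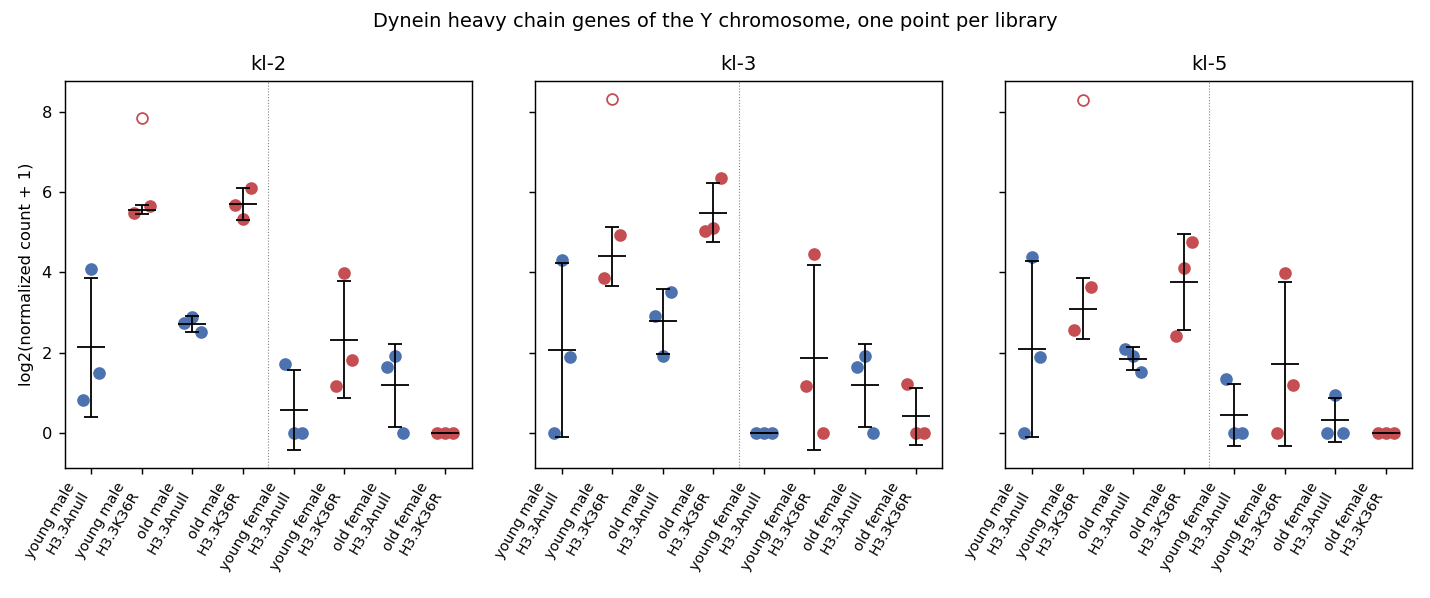
Levels of kl-2, kl-3 and kl-5 as log2(normalized count + 1) in each library, grouped by age, sex and genotype, with the mean and SD of each group as black bars. Open circles mark young male H3.3K36R replicate 2, which is not in the means, and the 5 other H3.3K36R male libraries lie above all 6 H3.3Anull male libraries for kl-2 but not for kl-3 or kl-5.

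The mean of kl-2 was 46.3 ± 3.64 (SD, n = 2) in young H3.3K36R males and 6.19 ± 8.52 (SD, n = 3) in young H3.3Anull males, a ratio of means of 7.48. In old males the means were 52.3 ± 14.7 (SD, n = 3) and 5.61 ± 0.874 (SD, n = 3), a ratio of 9.32. On the log2(normalized count + 1) scale the fitted difference was 3.43 in young males (SE 0.76, limma adjusted p = 0.0433), where SE is the standard error. In old males it was 2.98 (SE 0.68, limma adjusted p = 0.0212). On recovered reads the log2 difference was smaller in young males, 2.96 with edgeR and 2.93 with DESeq2. In old males it was larger, 3.20 and 3.22 in turn. Among all 11399 genes tested, 1.17% were called higher in H3.3K36R in young males and 4.99% in old males. kl-2 entered the test because at least 3 libraries reached 10 normalized counts, which 5 H3.3K36R libraries and 1 H3.3Anull library did. With no filter on low values, the adjusted p from limma was 0.0555 in young and 0.0275 in old males, so the young call was lost without the filter.

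The call of kl-2 in young males was near the threshold, and it was lost with edgeR on the recovered reads (adjusted p = 0.0705) while DESeq2 gave an adjusted p of 0.00431. In old males edgeR gave an adjusted p of 0.0207 and DESeq2 1.1e-04. A contrast over both ages, chosen after seeing the data and in the same limma fit, put kl-2 at a log2 difference of 3.21 (SE 0.51, adjusted p = 0.00235), where 6.81% of all genes were called higher. Leaving out any 1 of the 11 libraries kept this call in limma, though dropping a young H3.3K36R library leaves 1 in its group. Without the 3 males with over 10000 Yp1 together, which also leaves 1 there, the call was lost (log2 difference 3.12). At a single age, losing 1 library often ended the call. In young males 9 of the 11 omissions did, among them that of young H3.3K36R replicate 3, which leaves 1 library in its group. In old males 5 did, up to a limma adjusted p of 0.0963 without old H3.3K36R replicate 3.

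The difference in kl-2 was recomputed without the libraries that stood apart, an omission chosen after seeing the data. Without the 2 males highest in testis genes, the log2 difference was 4.41 (limma adjusted p = 0.00282) in young and 3.17 (adjusted p = 0.00464) in old males. When the 3 males with reads on over 30% of silent genes were dropped, it was 4.33 in young and 2.78 in old males (limma adjusted p = 0.0153 in old males). That drop left 1 young H3.3K36R library and also removed young H3.3Anull replicate 2. Without the 3 males with over 10000 Yp1 the log2 difference was 3.35 in young males, with 1 young H3.3K36R library left. In old males it was 2.89, almost as large, but the limma adjusted p was 0.142. Per kb of exon, kl-2 had 3.27 and 3.65 normalized counts in the young and 3.73, 2.91 and 5.08 in the old H3.3K36R libraries. The silent autosomal genes of those libraries had 0.225, 0.999, 0.378, 0.597 and 1.81 per kb, less than kl-2 in each. These genes were chosen as silent in at least 12 libraries of the same data, so their level is low by selection. Lying above them therefore does not set kl-2 apart from other genes with reads. In the old H3.3Anull males kl-2 was also above the silent genes, by less, at 0.427 against 0.299, 0.480 against 0.401 and 0.350 against 0.288 per kb. In the young H3.3Anull males it was below them, at 0.0567 against 0.163, 1.20 against 2.21 and 0.135 against 0.257 per kb.

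kl-3, the next dynein gene along the chromosome, ranked second. Its young values were 0, 18.8 and 2.7 normalized counts in H3.3Anull and 13.6 and 29.3 in H3.3K36R, and these ranges overlap through H3.3Anull replicate 2. Its old values were 6.5, 2.76 and 10.3 in H3.3Anull and 31.4, 33.3 and 80.5 in H3.3K36R, with no overlap. The log2 difference was 2.33 (SE 1.02, limma adjusted p = 0.241) in young and 2.71 (SE 0.91, adjusted p = 0.101) in old males, so neither passed, while DESeq2 called the old difference (adjusted p = 0.0166) and edgeR did not (adjusted p = 0.0924). Over both ages, the contrast chosen after seeing the data, it was 2.52 (limma adjusted p = 0.0353), and this call was lost with edgeR (adjusted p = 0.0549). It was also lost without 8 of the 11 libraries in turn, among them young H3.3K36R replicate 3, which leaves 1 library in its group.

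kl-5 was lower and more variable. In young males it had 0, 19.8 and 2.7 normalized counts in H3.3Anull and 4.86 and 11.4 in H3.3K36R, and the highest value belonged to the H3.3Anull library with testis RNA and broad low-level reads. In old males the values were 3.27, 2.76 and 1.88 in H3.3Anull against 4.34, 16.1 and 25.9 in H3.3K36R. The lowest H3.3K36R library and the highest H3.3Anull library held 4 reads each, so these ranges are apart only through the size factors. The log2 difference of kl-5 was 1.0 (SE 1.12, limma adjusted p = 0.657) in young and 1.91 (SE 1.0, adjusted p = 0.309) in old males.

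**Figure D2:**
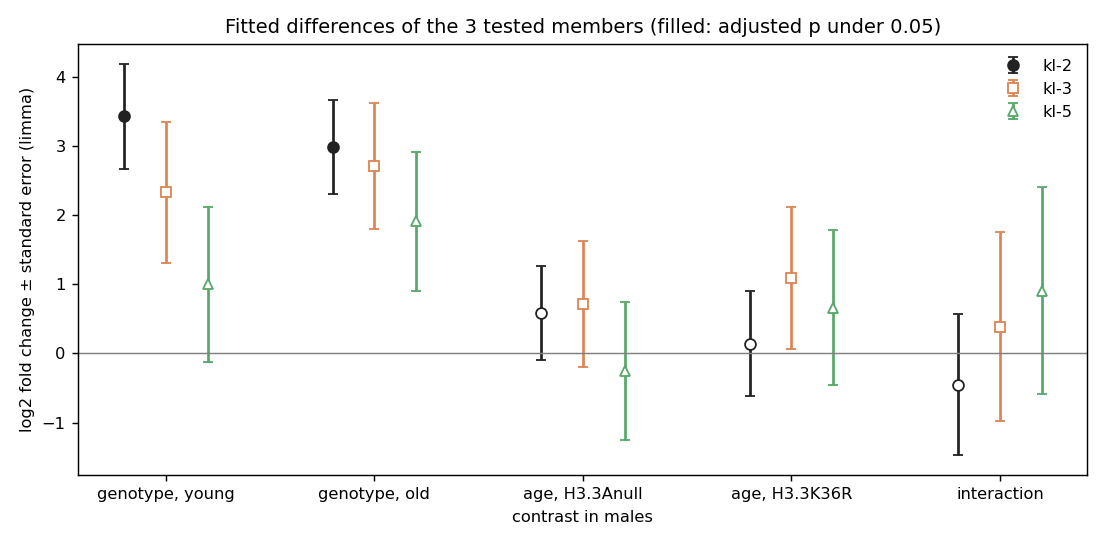
Fitted log2 differences of kl-2, kl-3 and kl-5 on the log2(normalized count + 1) scale, with the standard error as bars, for the 5 contrasts among males. Filled symbols mark an adjusted p under 0.05, which kl-2 reached in both genotype contrasts and no gene reached in an age or interaction contrast.

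The other 7 genes were low, with at most 9.58 normalized counts in any male library compared, and none entered the main test. A count of 0 allows up to 3 reads, a floor of 2.28 to 3.44 normalized counts in these males. ARY, which encodes an aldehyde reductase-like enzyme, stood out among the 7. In old H3.3K36R males it had 6.51, 4.59 and 9.58 normalized counts, against 0.817, 2.76 and 0 in old H3.3Anull males. Those H3.3K36R values were all above the floor, and ORY and CCY were above it in at least 1 male each. In young males ARY had 0, 1.88 and 0 in H3.3Anull and 2.91 and 0.814 in H3.3K36R, which overlap. ORY, which encodes an occludin-related coiled-coil protein, had 2.17, 5.73 and 3.83 in old H3.3K36R males, or 11 reads in all, and 1 read in all in old H3.3Anull males.

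CCY, another coiled-coil protein gene, had 2.17, 2.29 and 2.87 normalized counts in old H3.3K36R males and 0, 0.918 and 0 in old H3.3Anull males. In young males it had 0.760, 5.65 and 0.901 in H3.3Anull and 0.971 and 0 in H3.3K36R, with the highest value in the control library that had most testis RNA. PPr-Y, named for its likeness to a protein phosphatase regulatory subunit, had 2 or 3 reads in each old H3.3K36R library and 1 or 2 in each old H3.3Anull library, so its ranges also meet in reads. WDY, a WD40 repeat gene, had at most 3 reads in any of these libraries, with overlap at both ages. The protein phosphatase 1 catalytic subunit genes Pp1-Y1 and Pp1-Y2 had 3 and 4 reads over all 11 males, and in old H3.3K36R males both were at 0 in every library.

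With the low-value filter removed, no gene of these 7 passed in the limma or the edgeR fit. The nearest in the contrast over both ages were ARY, with a log2 difference of 1.46 (SE 0.50, limma adjusted p = 0.109), and ORY, also at 1.46 (SE 0.50, adjusted p = 0.111). By ranges alone, 7 of the 10 genes (kl-2, kl-3, kl-5, ORY, CCY, PPr-Y and ARY) lay entirely above H3.3Anull in old H3.3K36R males and 0 entirely below. Of the 16756 genes with a read in males, 15.9% lay entirely above and 11.1% entirely below. Of the 5826 genes with a mean of at most 10 normalized counts, 14.6% lay entirely above and 1.42% entirely below. Few rare transcripts lay below in old males, so 0 of the 10 below is near their share. In young males 1 of the 10, kl-2, lay entirely above, against 13.0% of all genes with a read and 5.76% of the 6004 genes with a mean of at most 10. These counts carry no test, and for kl-5, ARY, CCY, ORY and PPr-Y the nearest libraries of the 2 genotypes were at most 1 read apart.

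**Figure D3:**
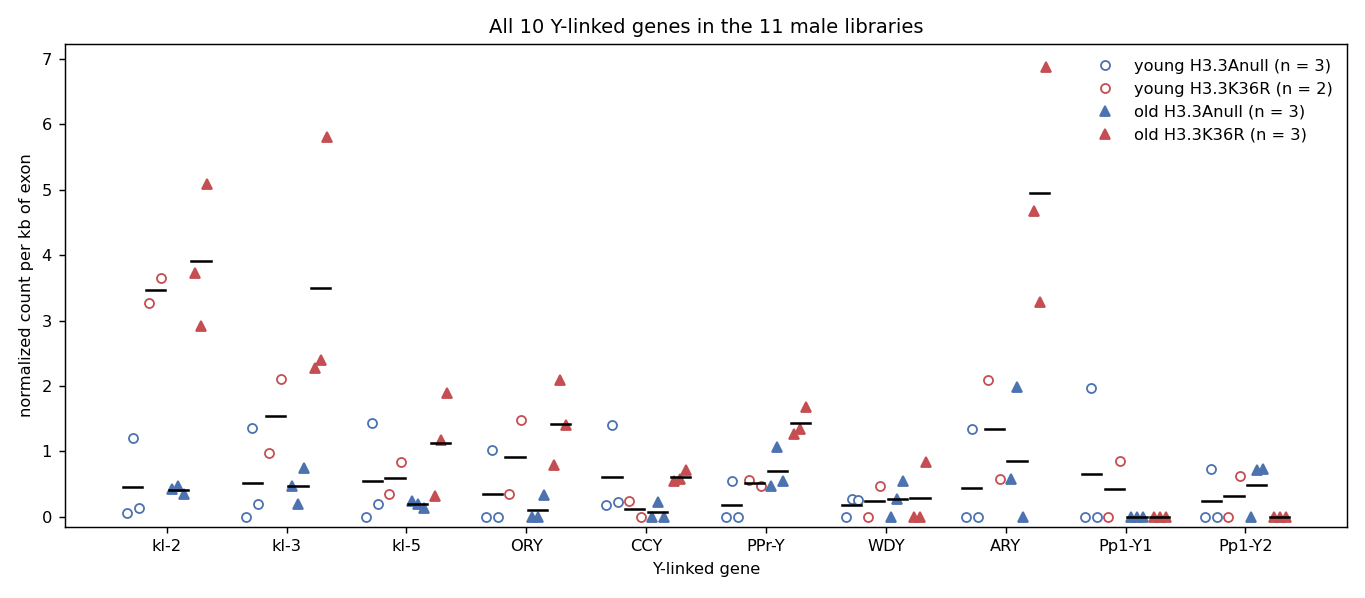
Normalized counts per kb of exon of the 10 genes in the 11 male libraries, with circles for young, triangles for old, blue for H3.3Anull, red for H3.3K36R and a black line at each group mean. The highest value of kl-2, kl-3 and ARY was in an old H3.3K36R library, and the remaining genes stayed at or below 2.09 per kb in every library.

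Per kb of exon, which allows genes to be compared with each other, the mean level over the 5 H3.3K36R males was 3.73 ± 0.824 (SD) for kl-2, 3.51 ± 2.41 for ARY and 2.71 ± 1.81 for kl-3. It was 1.22 ± 0.669 for ORY, 1.07 ± 0.522 for PPr-Y, 0.914 ± 0.651 for kl-5, 0.415 ± 0.289 for CCY and 0.265 ± 0.386 for WDY, with Pp1-Y1 at 0.171 ± 0.382 and Pp1-Y2 at 0.127 ± 0.283. No pair of neighbours in this order differed by more than the larger of their SDs. The 3 genes at the top, kl-2, ARY and kl-3, follow one another on the chromosome. So do Pp1-Y2, ORY and CCY, which were lower, so being neighbours does not set the top 3 apart. Over the 6 H3.3Anull males the genes lay between 0.228 and 0.653 per kb on average, ARY being highest at 0.653 ± 0.840.

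No effect of age on kl-2, kl-3 or kl-5 was detected within a genotype: limma, edgeR and DESeq2 each called 0 of the 3 in either age contrast, and 0 had an unadjusted limma p under 0.05. In H3.3Anull males kl-2 differed between old and young by 0.59 on the log2 scale (SE 0.68, limma adjusted p = 0.563), in a contrast where 26.5% of all genes were called. Without young H3.3Anull replicate 2 this difference was 1.57 (adjusted p = 0.0168), as the other young control libraries held 1 and 2 reads of kl-2 against 5 to 7 in each old one. In H3.3K36R males kl-2 differed by 0.14 (SE 0.76, adjusted p = 0.923) where 18.7% of all genes were called. kl-3 had 13.6 and 29.3 normalized counts in young and 31.4 to 80.5 in old H3.3K36R males, which do not overlap, with a limma adjusted p of 0.493. The sum of the 10 genes was 68.0 and 98.5 in young and 98.7, 103 and 196 in old H3.3K36R males, the nearest pair being almost equal. The age-by-genotype interaction called 0 of the 3 genes with any of the 3 tools, with kl-2 at -0.45 (SE 1.02, limma adjusted p = 0.897), in a contrast where limma called 0.263% of all genes.

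Females carry no Y chromosome, and the source of their reads on these genes was not tested. The females with 2830 to 3195 normalized counts of roX1 held 2 or 3 reads of kl-2 each. They were young H3.3Anull replicate 1, young H3.3K36R replicate 3 and old H3.3Anull replicates 1 and 2. The other females had less roX1 and 0 or 1 read of kl-2, apart from young H3.3K36R replicate 2 with 12. In the 12 female libraries kl-2 had a median of 0.629 normalized counts and a range from 0 to 14.7, and the sum of the 10 genes was 0 to 58.8. The highest values were all from young female H3.3K36R replicate 2, with 14.7 for kl-2, 20.8 for kl-3 and 14.7 for kl-5, and the sum in the other 11 females was at most 9.23. Its sum of 20 testis genes was 516, above that of every other female and of every male compared. Ordered by mean, kl-2 was at 52.3 in old and 46.3 in young H3.3K36R males, which do not differ beyond their spread. Then came young H3.3Anull males at 6.19, young H3.3K36R females at 6.17 ± 7.43 (SD, n = 3) and old H3.3Anull males at 5.61, which also lay within one another's spread. Old H3.3Anull females at 1.63 ± 1.45 and young H3.3Anull females at 0.758 ± 1.31 followed, and old H3.3K36R females had 0 reads. Old H3.3Anull males, at 4.69 to 6.43, lay above all 6 old females, at 0 to 2.77.

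RNA from testis carries all of these genes, so the testis markers were set beside the results. The testis list matched 26 of 27 genes, and its summed level was 20274 to 22345 normalized counts in young H3.3Anull, 4745 to 20957 in young H3.3K36R, 17041 to 18585 in old H3.3Anull and 15785 to 18089 in old H3.3K36R males. bol alone made 91.3% to 98.1% of this sum in the males compared, and it was at 11578 or more in females, so the sum says little about germline RNA. Only nht in young H3.3K36R and tomb in old H3.3Anull males were at 0 throughout a group. The 20 genes of the list with a median under 15 in females summed to 31.1, 181 and 23.4 in young H3.3Anull and 43.7 and 86.3 in young H3.3K36R males. In old males they summed to 31.9, 55.1 and 32.8 in H3.3Anull and 70.5, 311 and 87.2 in H3.3K36R, so these testis genes, too, were higher in every old H3.3K36R library. Of the 10 genes of the testis list that entered the test, limma and edgeR called 0 between genotypes at either age. At an unadjusted limma p under 0.05 there was 1 in young and 4 in old males, and DESeq2 called 2 in old males. Among all genes tested, limma called 1.17% higher in young and 4.99% in old males. At such shares, 0 calls among 10 genes says little about testis RNA. Over both ages, the contrast chosen after seeing the data, each tool called 1 of the 10, where limma called 6.81% of all genes higher. In limma it was mia, higher by 0.47 (adjusted p = 0.0437), a call lost with no filter (adjusted p = 0.0791). The median log2 difference of the 10 was -0.19 in young males, 0.53 in old males and 0.43 over both ages. Over all genes it was 0.02, -0.00 and 0.00. Of 14 accessory gland and ejaculatory bulb genes, 5 entered and 0 were called by any tool or had an unadjusted limma p under 0.05. With 5 genes, 0 calls between genotypes says little as well. The sums of the 14 were 15834 to 19069 in young H3.3Anull and 17507 to 22705 in young H3.3K36R males. In old males they were 13551 to 19940 and 14232 to 16819 in turn. The gene EbpIII of this list alone reached 19850 in an H3.3Anull male, and females summed to 9199 to 16373. These sums therefore say little about accessory gland RNA. Acp29AB was at 0 in young H3.3K36R males, and Acp26Ab, Acp29AB and Acp76A were at 0 in old H3.3Anull males. Young H3.3Anull and old H3.3K36R males had reads on every gene of this list. The part of testis RNA in the levels of the Y-linked genes was not tested. The omission of the males highest in testis genes cannot decide it. It removed the young control with the highest kl-2 and the old H3.3K36R male with the lowest.

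**Figure D4:**
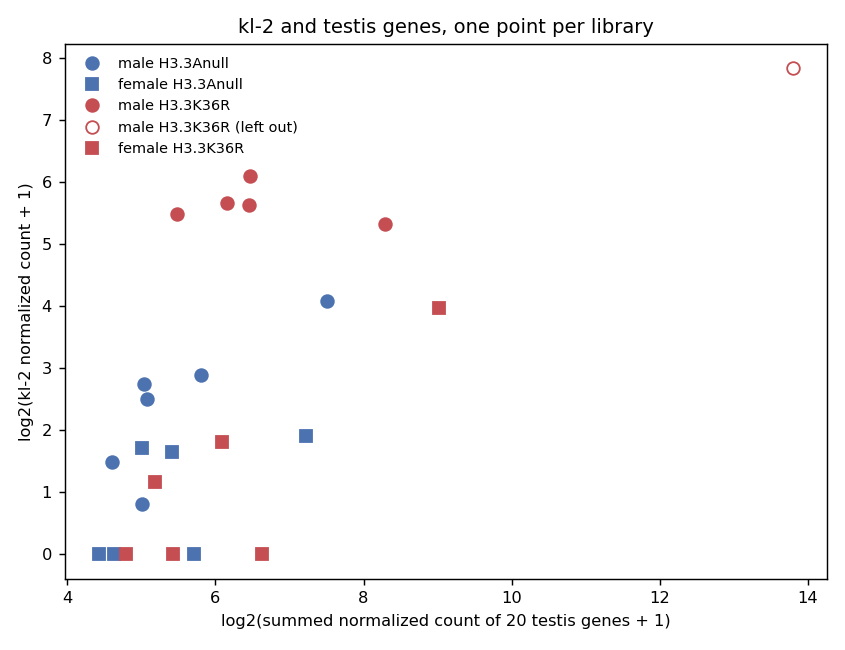
kl-2 as log2(normalized count + 1) against the log2 summed normalized count of 20 testis genes plus 1, one point per library, with circles for males, squares for females, blue for H3.3Anull and red for H3.3K36R. The 5 H3.3K36R males lie above the H3.3Anull males and the females of similar testis level, and the open circle at the upper right is the library left out.

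Set against those 20 genes, kl-2 had 100, 56.6, 70.8, 12.5 and 78.0 normalized counts per 100 counts of testis genes in the H3.3K36R males, in the order young replicates 1 and 3 and old replicates 1 to 3. In H3.3Anull males it had 2.44 to 17.9, in the library left out 1.60 and in young female H3.3K36R replicate 2 it had 2.85. Old H3.3K36R replicate 2, the male with most testis RNA among those compared, was the only H3.3K36R male within the range of the controls. The mixture of the 10 genes also differed between libraries. In the library left out, 986 reads fell on the 10 genes, with 20.4% on kl-2 (95% Wilson interval 18.0% to 23%), 28.6% on kl-3 (25.9% to 31.5%), 27.9% on kl-5 (25.2% to 30.8%) and 11.3% on CCY (9.43% to 13.4%).

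In the 5 H3.3K36R males the share of kl-2 was 64.3% (52.6% to 74.5%) of 70 reads and 49.6% (40.8% to 58.4%) of 121 in the young and 50.5% (40.5% to 60.6%) of 91, 37.8% (28.5% to 48.1%) of 90 and 34.6% (28.5% to 41.4%) of 205 in the old. All 5 intervals lie above that of the library left out, which is a single library. kl-2 was singled out as the clearest difference between the genotypes, so a high share in these males partly follows from that choice. CCY held 0 to 2.22% of the reads in these males, with upper limits of 3.08% to 7.74%, below the interval in the library left out. Young female H3.3K36R replicate 2, with 48 reads, had 25.0% (14.9% to 38.8%) on kl-2 and 2.08% (0.369% to 10.9%) on CCY. Its kl-2 interval overlaps those of old H3.3K36R male replicates 2 and 3. In young H3.3Anull replicate 2, the control with most reads, 74 in all, kl-2 had 23% (14.9% to 33.7%) and CCY 8.11% (3.77% to 16.6%), both of which include the values of the library left out. The 3 old H3.3Anull males had 21, 21 and 23 reads, with 33.3% (17.2% to 54.6%), 33.3% (17.2% to 54.6%) and 21.7% (9.66% to 41.9%) on kl-2. Their intervals hold the values of old H3.3K36R replicates 2 and 3 as well as that of the library left out, so a difference in the share of kl-2 between old males was not detectable at this depth. The other young H3.3Anull males had 2 and 10 reads. The intervals and the floor of 3 reads cover counting error only, because PCR copies of a molecule were counted as separate reads.

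**Figure D5:**
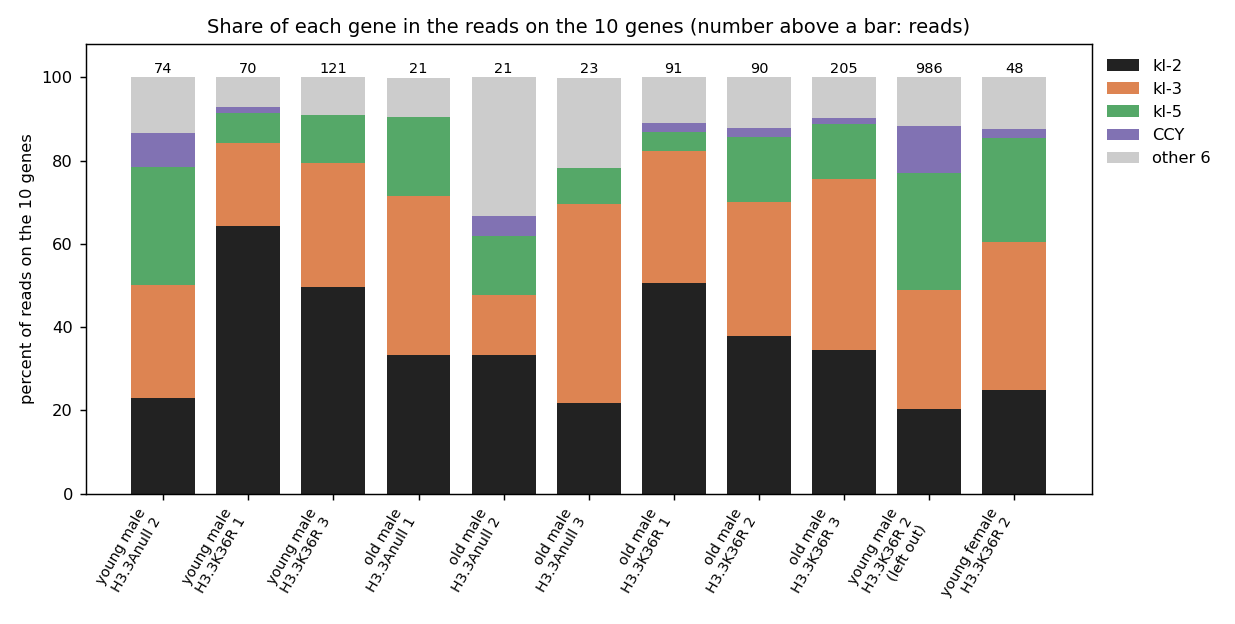
Percent of the reads on the 10 genes that fell on kl-2, kl-3, kl-5, CCY and the other 6 genes, in each library with at least 20 such reads, with the number of reads above each bar. kl-2 took 34.6% to 64.3% in the 5 H3.3K36R males, 21.7% to 33.3% in the old H3.3Anull males and 20.4% in the library left out.

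Of the 103 other Y-linked rows, 74 had a read in males. With no filter on low values, limma called 3 of these 74 higher and 0 lower in old H3.3K36R males, where it called 2.94% of all genes with a read higher, and the median log2 difference was 0.51 against 0.06. The 3 were Su(Ste):CR42407, Su(Ste):CR42412 and CR46188, of which the last 2 are named after their values were seen. In young males it called 0 of the 74, with a median of 0.11 against -0.00. With the filter 10 rows entered, of which 3 were called higher in old males, but those 3 reached 10 normalized counts in H3.3K36R libraries only and so entered through the group in which they were high. In young males limma and edgeR called 0 of the 10 and DESeq2 1, and 3 had an unadjusted limma p under 0.05. The 5 with most normalized counts in males were FDY, CR41504, Su(Ste):CR42407, Su(Ste):CR42425 and CR46150. FDY, a Y-linked gene that arose from the autosomal gene vig2 and can share reads with it, ranged from 3.04 to 18.0 normalized counts over the 6 H3.3Anull males and from 33.3 to 54.2 over the 5 H3.3K36R males, with no overlap. Its log2 difference was 2.31 (limma adjusted p = 0.0596) in young and 1.54 (adjusted p = 0.0859) in old males, and 1.92 (adjusted p = 0.00705) over both ages.

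The Su(Ste) genes are noncoding repeats whose small RNAs silence the X-linked Stellate genes in testis, and their near-identical copies make the count of any 1 copy uncertain. In old males Su(Ste):CR42407 ranged from 0.938 to 4.59 normalized counts with H3.3Anull and from 24.9 to 54.6 with H3.3K36R (limma adjusted p = 0.0125, and 0.0121 with no filter). Su(Ste):CR42425 had 1.84 to 6.57 and 19.5 to 32.1 (adjusted p = 0.0497), and its call was lost with no filter (adjusted p = 0.0543). No H3.3Anull male had more than 6.59 of either. Summed over 27 Su(Ste) rows, young H3.3Anull males had 7.60, 82.8 and 12.6 and young H3.3K36R males 66.0 and 38.3, while old H3.3Anull males had 14.7, 24.8 and 23.5 and old H3.3K36R males 124, 131 and 234. The pseudogenes CR41504 and CR46150 did not pass at either age. CR41504 had a mean of 12 in females against 26.4 in males, so part of its reads came from elsewhere than the Y chromosome.

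Genes outside the Y chromosome with related functions were described from lists. Of 10 listed for axonemal dynein and its assembly, 9 were in the table and 8 entered the test. In young males 1 was higher in H3.3K36R and in old males 2 were, with 0 lower at either age, against 1.17% and 4.99% of all genes called higher, and their median log2 differences were 0.47 and 0.35 against 0.02 and -0.00 over all genes. Dhc98D, an axonemal dynein heavy chain gene, ranged from 87.4 to 116 normalized counts in old H3.3Anull males and from 701 to 738 in old H3.3K36R males, a log2 difference of 2.77 (SE 0.30, limma adjusted p = 3.6e-04). It was also higher in females, at 80.2 to 88.5 in young H3.3Anull and 429 to 668 in young H3.3K36R libraries, which carry no Y chromosome. Dhc93AB, another heavy chain gene, was higher in H3.3K36R by 0.76 (adjusted p = 0.0477) in young and 1.23 (adjusted p = 7.1e-04) in old males, and its young call was lost with no filter (adjusted p = 0.0649). Dhc62B rose with age in both genotypes, by 1.76 (adjusted p = 0.00489) in H3.3Anull and 1.57 (adjusted p = 0.0206) in H3.3K36R males.

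Among 8 protein phosphatase 1 catalytic subunit genes outside the Y chromosome, 5 entered, of which 1 was higher in young and 2 in old H3.3K36R males, beside the same 1.17% and 4.99% of all genes. PpD6, a testis-biased member, had 0, 0.941 and 1.80 normalized counts in young H3.3Anull and 20.4 and 24.4 in young H3.3K36R males, a log2 difference of 3.73 (SE 0.81, limma adjusted p = 0.0394). In old males PpD6 had 2.45, 0.918 and 0 against 8.68, 21.8 and 36.4 (adjusted p = 0.0151). It reached 10 normalized counts in 4 H3.3K36R males and 0 H3.3Anull males, and so entered through the group in which it was high, and with no filter its adjusted p was 0.0358 in young and 0.0111 in old males. Pp1alpha-96A, a broadly expressed subunit, was higher in old H3.3K36R males by 0.96 (adjusted p = 5.8e-04) and fell with age in H3.3Anull males, as flw did. Of 4 genes that the expression of Y-loop genes needs in spermatocytes, blanks, which encodes a double-stranded RNA binding protein, had 151, 91.8 and 61.9 in old H3.3Anull and 421, 308 and 358 in old H3.3K36R males (adjusted p = 0.00587). In young males 0 of the 4 were called by any tool and 2 had an unadjusted limma p under 0.05. rept, a helicase gene, rose with age by 0.90 in H3.3Anull (limma adjusted p = 0.00239) and 0.83 in H3.3K36R males (limma adjusted p = 0.00879), and its partner pont rose by 0.61 in H3.3Anull males (limma adjusted p = 0.00753).

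Marker genes of the head set the background for these lists. All 8 neuron and photoreceptor genes entered, and limma and edgeR called 0 between genotypes at either age. DESeq2 called 1 in old males, and 3 had an unadjusted limma p under 0.05 in young males. Beside the 1.17% and 4.99% of all genes that limma called higher, 0 of 8 says little. With age, the opsin genes Rh4 and Rh3 rose and ninaC and Syn fell in H3.3Anull males, and Rh4 rose in H3.3K36R males, so 4 and 1 of the 8 were called where 26.5% and 18.7% of all genes were. The 4 female fat body and ovary genes had 0 limma calls, with edgeR calling 2 with age in H3.3Anull males. Of the testis list, twe and mia rose with age in both genotypes and topi fell in H3.3Anull males. The male dosage compensation RNA roX2 was lower in old H3.3K36R males by a log2 difference of -0.41 (limma adjusted p = 0.0343).

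Genes elsewhere that followed the sum of the 10 genes most closely over the 11 males were CG31674, CG13455, CG12869, CG18530 and CG31106, with Pearson r between 0.92 and 0.93 on the log2 scale and Spearman rho between 0.78 and 0.95. These r describe 11 libraries that fall into 2 genotypes, and the genes were the highest of all those tested, so they carry no p. CG31674 ranged from 34.2 to 61.5 normalized counts over the H3.3Anull males and from 68.0 to 99.6 over the H3.3K36R males. The other 4 were rare transcripts like the Y-linked genes, with 0.760 to 49.8 normalized counts in these libraries.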

How the data were processed

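Libraries came from total head RNA depleted of ribosomal RNA, read from both ends for 100 nt. The authors aligned reads to dm6 with STAR 2.7.7a, counted them with featureCounts of Subread 2.0.3 and deposited normalized counts from DESeq2 1.34.0, a signal that equals the read count divided by each library's size factor (versions from the submitters' processing notes). Every deposited value came out as a whole read (100%, tolerance 0.01), and 0 columns lacked a sample.

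Symbols and positions came from the Ensembl annotation of the same assembly, with a symbol for 17527 of 17606 IDs. Of the listed genes, 1 testis gene and 1 dynein assembly gene had no match.

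limma 3.58.1 with a trend in the prior variance (R 4.3.3) was fitted to log2(normalized count + 1) of 11 males in 4 groups, for the 11399 genes that reached 10 normalized counts in 3 or more of them. Tests were two-sided with Benjamini-Hochberg adjustment over all genes tested. p-values measure the spread between libraries, whose origin from separate crosses is not given in the sources used here. edgeR 4.0.16 (quasi-likelihood) and DESeq2 1.42.0 were run on recovered reads. Steps were tested on simulated data. Other steps used pandas 2.3.3, numpy 2.4.6, matplotlib 3.10.9, scipy 1.17.1 and Python 3.11.15.

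The alternatives were pseudocounts of 0.5 and 5, no filter, a minimum of 50, upper-quartile scaling, library weights, a replicate block, all 12 males, a fit of all 8 groups and leaving out libraries. Omitting males high in testis genes, in Yp1 or in reads on silent genes, edgeR without a filter, and the contrast over both ages were chosen after seeing the data.

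All 10 genes are described. Others named are up to 4 called genes a list, the 5 most like the sum, and the 5 other Y-linked rows with most counts. The genes and lists were chosen with earlier results of these data known. Sequences were not used here.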

Additional observations from a re-analysis of the deposited data

Results flagged for a closer look

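In 3 libraries outside the male comparisons the sum of the 10 Y-linked genes was above that of every H3.3Anull library of the same age and sex. In young male H3.3K36R replicate 2, the library left out, the sum was 1118 normalized counts, against at most 69.7 in young H3.3Anull males. Its kl-2, kl-3, kl-5 and CCY were at 228, 320, 312 and 126, and its 20 testis genes summed to 14217. In young female H3.3K36R replicate 2 the sum was 58.8, against at most 3.79 in young H3.3Anull females, with 48 reads on the 10 genes and 516 normalized counts of testis genes. Its roX1 was 420, within the range of the females. In young female H3.3K36R replicate 3 the sum was 5.06, or 4 reads against at most 5 in a young H3.3Anull female, so it rests on a smaller size factor and not on more reads.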

How the results depend on the processing

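The counts of genes called moved most. In young males limma called 228 genes between genotypes, against 563 with DESeq2, 31 with library weights, 420 with all 12 males, 579 in the fit of all 8 groups and 115 to 2236 with 1 library left out. In old males it called 899, against 1870 with weights and 397 to 1346 with 1 library left out. Over both ages it called 1363, against 825 with weights and 833 to 3122 with 1 library left out. With age it called 3019 in H3.3Anull (1982 to 3927 with 1 left out) and 2130 in H3.3K36R males (611 with weights, 1254 to 3210 with 1 left out). The interaction called 30, against 16 at a minimum of 50, 11 with edgeR, 105 with DESeq2, 0 with weights, 18 with all 12 males and 0 to 1064 with 1 left out. Without the 2 males highest in testis genes, the counts were 113 young, 433 old, 675 over both ages, 1315 with age in H3.3K36R males and 10 for the interaction. Without the 3 males high in Yp1 they were 83 young, 613 over both ages, 1285 with age in H3.3K36R males and 0, and without the 3 with broad low reads 83, 579 in old males, 571, 991 and 0.

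Of the 10 Y-linked genes, the 1 called in young males (kl-2) became 0 with a pseudocount of 0.5, no filter, a minimum of 50, upper-quartile scaling, edgeR with or without a filter, weights, the replicate block and the Yp1 omission, and 0 to 1 with 1 library left out. The 1 called in old males became 2 with a pseudocount of 5, DESeq2 or weights, 0 at a minimum of 50, with all 12 males or the Yp1 omission, and 0 to 2 with 1 left out. With age in H3.3Anull males the 0 became 1 without the testis libraries or those with broad low reads, and 0 to 1 with 1 left out. Over both ages the 2 became 0 at a minimum of 50 or the Yp1 omission, 1 with edgeR, weights or without the broad libraries, and 1 to 2 with 1 left out. The causes were not tested, except that a minimum of 50 leaves fewer of the genes to test.

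Log2 differences that changed sign were all uncalled. With age in H3.3Anull males kl-2 was -0.05 with edgeR, -0.10 with DESeq2, -0.04 with edgeR unfiltered and -0.07 to 1.57 with 1 library left out. In the same contrast kl-3 was -0.06, -0.11, -0.04 and -0.32 to 1.83, and kl-5 was 0.65 with weights and -1.29 to 0.90 with 1 left out. With age in H3.3K36R males kl-2 was -0.62, kl-3 -0.22 and kl-5 -1.07 with all 12 males, and kl-2 was -0.07 to 0.33 with 1 left out. In the interaction kl-2 was 0.24 with edgeR, 0.29 with DESeq2, 0.15 with edgeR unfiltered and -1.43 to 0.21 with 1 left out. There kl-3 was -0.18 with weights, -0.92 with all 12 males, -0.54 without the testis libraries, -0.64 without the broad ones and -0.74 to 1.42 with 1 left out, and kl-5 was -0.83 with all 12 males and -0.24 to 1.95 with 1 left out. In young males kl-5 between genotypes was -0.04 to 2.15 with 1 left out.

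Replicate numbers gave no clear pairing of the libraries. The mean correlation was 0.0488 for libraries of the same number and -0.0251 for those of another number. Of 15 pairs with the same number 5 were above 0.1, and 6 of 11 libraries correlated best with their own number. With the replicate block kl-2 was 3.72 in young males (limma adjusted p = 0.0514), 2.98 in old males (limma adjusted p = 0.0266) and -0.15 with age in H3.3K36R males, and the interaction called 7 genes. Depth limits 7 of the 10 genes, which had at most 10 reads in any male library compared.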
